A study of Mus musculus with 9 samples.

Results

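The Eph receptors and their ligands, the ephrins, were followed across the cell types, mesenchymal positions and genotypes of the mouse forelimb bud. The 9 genes are taken by symbol, with no threshold on a value: the EphA receptors Epha3, Epha4 and Epha7, their ligands Efna1 and Efna5, the EphB receptors Ephb2 and Ephb3, and their ligands Efnb1 and Efnb2. Each of the 9 is 1 of the 32289 features counted in every library. Single-cell RNA-seq libraries were made from pairs of forelimb buds of embryos at E10.75 (37 to 39 somites), 1 library a pair, with 3 libraries each of wild type (Wt), E1C8Δ/Δ and E1C5Δ/Δ. The mutants are homozygous for the compound germline alleles EC1CRM8 or EC1CRM5, each of which lacks several enhancers of Grem1, which encodes the BMP antagonist Gremlin 1, and both lines develop limbs with 4 digits. No treatment was given, and nothing else distinguishes the 3 genotypes in the sources used here. Whether embryos were littermates is not stated in the sources used here, so p-values measure the spread between these libraries.

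Eph receptors are receptor tyrosine kinases that bind ligands held on the surface of a neighbouring cell, so signalling needs contact between cells and can run in both directions, into the receptor cell and into the ephrin cell. Ephrins of the A class are anchored by a lipid and bind mostly EphA receptors, and ephrins of the B class span the membrane and bind mostly EphB receptors. Epha4 binds ligands of both classes. The family is best known for repulsion and boundary formation between groups of cells, for guiding axons and migrating muscle precursors in limbs, for the separation of arteries (Efnb2) from veins (Ephb4), and for the sorting and adhesion of limb mesenchyme.

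Cells were sorted in silico by marker genes that include no Eph receptor or ephrin. A lineage was given where a cell carried its markers and those of no other list, and mesenchyme was further split by position genes read at an equal depth of 10000 UMIs (unique molecular identifiers) per cell. The 8 positions were polarizing cells (Shh), distal cells (Hoxa13 and Hoxd13), peripheral cells (Asb4, Msx1 and Lhx2), anterior-proximal cells (Pax1 and Alx4), proximal cells (Gsc and Creb5), core cells (Sox9 and Col2a1), posterior cells (Osr1 without Shh) and zeugopod-level cells (Hoxa11 and Hoxd11 without Hoxa13). They held 180, 287, 4440, 339, 395, 4771, 2296 and 4560 cells, and cells that met several of these definitions were left out. The lineages held 35455 mesenchymal, 589 ectodermal, 601 endothelial and 1187 muscle cells. The names stand for the marker genes used and were not checked against tissue sections. Levels are in CPM, a gene's UMIs scaled to the total UMIs summed over all cells of 1 group in 1 library, used where the library held at least 20 such cells. In such sums fewer expressing cells and less RNA per cell cannot be told apart.

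The libraries differed in size. They held 2571 to 28480 barcodes each, of which 604 to 9917 passed the filters on cells and 592 to 8699 remained after doublet removal. Wt replicate 3 and E1C8Δ/Δ replicate 1 were the smallest. Median UMIs per mesenchymal cell ran from 29808 to 47944 in Wt, from 16734 to 30192 in E1C8Δ/Δ and from 30612 to 43865 in E1C5Δ/Δ. Any pair of libraries shared at most 28 barcodes. The summed markers of each lineage were high in its own cells: 1514 to 1897 CPM in mesenchyme for the mesenchymal list, 2311 to 2785 in ectoderm, 3881 to 4688 in endothelium and 779 to 1047 in muscle. Outside mesenchyme the mesenchymal list summed to 60.2 to 199 CPM in ectoderm, 28.0 to 99.9 in endothelium and 95.6 to 242 in muscle. The highest sum was in E1C8Δ/Δ each time. The part of mesenchymal transcripts in the levels of these lineages was not tested. Within mesenchyme the muscle list summed to 7.60 to 9.42 CPM in Wt, 9.88 to 20.7 in E1C8Δ/Δ and 6.30 to 7.14 in E1C5Δ/Δ, the endothelial list to medians of 22.9, 25.8 and 22.3, and the ectodermal list to 12.3 to 15.8, 17.4 to 20.4 and 9.51 to 11.4. Xist counts set against those of 4 Y-linked genes made all 3 Wt libraries male, and each mutant group 2 female and 1 male. Among male libraries Xist stood at 21.2 CPM in Wt replicate 1 and 7.54 in E1C8Δ/Δ replicate 3, against 0.0987 or less in the others. Female libraries held 677 to 992 CPM. The Y-linked genes stood at 2.88 CPM in the female E1C8Δ/Δ replicate 1. The source of these counts was not tested.

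The stretches upstream of the start sites of 4 members are shown because of the differences described next: Epha4 was high in distal cells, where Epha7 and Efnb2 were low, and Epha3 differed between genotypes. They are the 250 bases before the RefSeq start site in GRCm38.p6, 5′ to 3′ on the strand of the gene, and all 9 members had such a window. For Epha7, which has 2 listed start sites, the more upstream window is shown, and the other was not searched for these motifs by itself.
Epha4, chr1:77515089-77515338, minus strand: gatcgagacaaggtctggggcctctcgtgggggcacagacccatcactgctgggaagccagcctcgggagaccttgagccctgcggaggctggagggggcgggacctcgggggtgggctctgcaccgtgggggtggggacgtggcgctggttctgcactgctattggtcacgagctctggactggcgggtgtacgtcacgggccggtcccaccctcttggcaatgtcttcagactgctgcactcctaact
Epha7, chr4:28812881-28813130, plus strand: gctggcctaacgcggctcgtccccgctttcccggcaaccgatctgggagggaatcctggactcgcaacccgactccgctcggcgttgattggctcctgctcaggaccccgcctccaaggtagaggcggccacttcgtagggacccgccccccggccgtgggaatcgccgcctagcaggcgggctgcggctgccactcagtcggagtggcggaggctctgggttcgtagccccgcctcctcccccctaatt
Efnb2, chr8:8661243-8661492, minus strand: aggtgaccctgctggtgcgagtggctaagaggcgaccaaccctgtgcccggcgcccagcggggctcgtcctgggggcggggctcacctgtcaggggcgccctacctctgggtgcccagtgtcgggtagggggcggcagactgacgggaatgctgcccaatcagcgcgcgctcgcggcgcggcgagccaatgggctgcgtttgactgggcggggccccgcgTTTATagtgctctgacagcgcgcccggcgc
Epha3, chr16:63864176-63864425, minus strand: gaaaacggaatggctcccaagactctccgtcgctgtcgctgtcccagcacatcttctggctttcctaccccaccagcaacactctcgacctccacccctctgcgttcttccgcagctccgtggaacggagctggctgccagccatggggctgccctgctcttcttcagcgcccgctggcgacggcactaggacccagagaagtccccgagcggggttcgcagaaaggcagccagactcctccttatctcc
Capitals mark TTTAT, or ATAAA for the other strand, the core letters that posterior HOX proteins such as HOXA13 bind. Among these 4 windows 1 match stood in that of Efnb2 and none in the others, and 37.3% of 32851 windows of this length held a match. The homeodomain palindrome TAATTA, of the kind bound by LIM homeodomain proteins, was searched on both strands as well and was found in none of the 4, against 4.84% of all windows. The windows are rich in G and C, with 66.0% for Epha4, 69.2% for Epha7, 72.0% for Efnb2 and 62.8% for Epha3. A match is a description of letters and not of a bound site.

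Each lineage had its own set of receptors and ligands. Each lineage was set against the mean of the other 3 in a quasi-likelihood fit of edgeR that held the library as a block, and p-values were adjusted over every gene in the fit (Benjamini-Hochberg). The fit took libraries of all 3 genotypes and averaged the other lineages on the log2 scale. Its folds therefore differ from ratios of the Wt means in CPM. In mesenchyme 9 of 9 members were called (69.0% of all genes tested), in ectoderm 9 of 9 (61.5% of all genes), in endothelium 9 of 9 (77.8%) and in muscle 8 of 9 (64.5%). Most genes differ between such lineages, so what the counts leave to describe is the direction and the size.

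**Figure D1:**
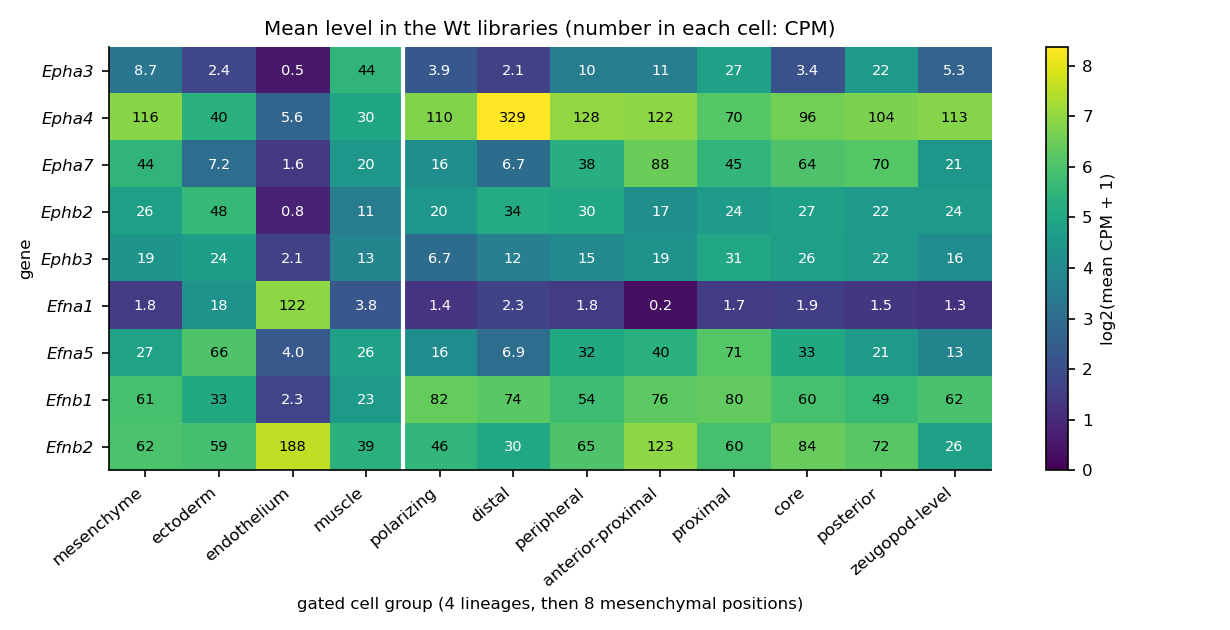
Heat map of the mean level of each of the 9 genes (rows) in Wt libraries, as log2(mean CPM + 1), in 4 lineages and then in 8 mesenchymal positions (columns), with the mean CPM written in each cell. Efna1 stands at 122 CPM in endothelium and at 1.77 in mesenchyme, and Epha4 at 329 CPM in distal cells.

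The EphA receptors Epha4 and Epha7 were mesenchymal. Epha4 stood at 129, 99.5 and 119 CPM in the 3 Wt mesenchyme sums, against a mean of 40.0 in ectoderm and 5.58 in endothelium and a range of 22.0 to 34.0 in muscle. All mesenchymal values lay above those of the other 3 lineages, and mesenchyme was 5.39-fold above their mean (log2 2.43 ± 0.07 SE, adjusted p = 6.44e-23). A UMI of Epha4 was seen in 48.0% of Wt mesenchymal cells thinned to 10000 UMIs and in 2.78% of erythroid cells at the same depth, the latter taken as background (73.4% and 13.5% unthinned, at median depths of 29808 to 47944 and 22596 to 37865 UMIs). Epha7, a receptor of the same class, averaged 43.7 CPM in Wt mesenchyme, 20.3 in muscle, 7.20 in ectoderm and 1.61 in endothelium, and was 6.57-fold above the mean of the other lineages in mesenchyme (log2 2.72 ± 0.11, adjusted p = 1.95e-19).

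Of the 9 genes, Epha3 was the one highest above the other lineages in the muscle cells, which at this stage are migrating precursors marked by Pax3, Lbx1 and Met. Its level in Wt muscle was 65.2, 24.8 and 40.5 CPM, in E1C8Δ/Δ 63.2 and 67.6, and in E1C5Δ/Δ 32.2, 31.3 and 25.05. The libraries spread widely, and the 3 E1C5Δ/Δ values lay within the Wt range. In Wt the mean was 43.5 CPM in muscle, 8.72 in mesenchyme, 2.40 in ectoderm and 0.477 in endothelium. In the fit over all genotypes, muscle was 17.9-fold above the log2 mean of the other 3 lineages (log2 4.16 ± 0.23, adjusted p = 1.67e-15). At 10000 UMIs 22.0% of Wt muscle cells, 6.02% of mesenchymal cells and 0.630% of erythroid cells carried an Epha3 UMI (50.7%, 16.8% and 1.26% unthinned, at median depths of 32826 to 58417 UMIs in muscle). Epha7 was also above the mean of the other lineages in muscle, by 1.01 ± 0.15 on the log2 scale (adjusted p = 9.30e-07), whereas Epha4 was below it by log2 -0.31 ± 0.10 (adjusted p = 0.00674).

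Efna1 and Efna5, ligands of the A class, were highest in different lineages. Of the other ligands of this class, Efna2 (108 CPM in Wt) was highest in mesenchyme and Efna3 (10.0) and Efna4 (70.5) in ectoderm. Efna1, a ligand known from vascular cells, stood at 125 and 118 CPM in Wt endothelium, at 151 and 134 in E1C8Δ/Δ and at 121, 124 and 119 in E1C5Δ/Δ. No endothelial sum was below 118 CPM, while Wt means were 18.5 in ectoderm, 3.80 in muscle and 1.77 in mesenchyme. Endothelium was far above the mean of the other lineages (log2 4.91 ± 0.08, adjusted p = 9.33e-30). At 10000 UMIs 55.3% of Wt endothelial cells carried an Efna1 UMI, against 2.07% in mesenchyme and 0.689% in erythroid cells (84.0%, 7.58% and 1.72% unthinned, endothelial cells having median depths of 23900 to 52740 UMIs), so the mesenchymal share was low but above that of erythroid cells. Efna5, a ligand known for repelling axons and for acting on migrating muscle precursors, was instead highest in ectoderm, at 83.8 and 48.4 CPM in Wt against means of 27.1 in mesenchyme, 26.4 in muscle and 4.01 in endothelium. Ectoderm was 4.04-fold above the mean of the others for Efna5 (log2 2.02 ± 0.08, adjusted p = 3.75e-20), and endothelium was below it by 2.84 ± 0.10 on the log2 scale.

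The EphB receptors Ephb2 and Ephb3 were highest in ectoderm in Wt. Other EphB receptors were not: Ephb4 (52.1 CPM, against 25.3 in ectoderm) and Ephb1 (5.49) were highest in endothelium and Ephb6 (4.29) in mesenchyme. Ephb2 stood at 59.1 and 36.0 CPM in Wt ectoderm, 28.6 and 25.4 in E1C8Δ/Δ and 19.5 and 47.4 in E1C5Δ/Δ. The spread within each genotype was wide and the genotypes overlapped. Wt mesenchyme averaged 26.2 CPM of Ephb2, muscle between 10.2 and 11.3 and endothelium 0.780, and ectoderm was 5.81-fold above the mean of the others (log2 2.54 ± 0.13, adjusted p = 1.53e-16). Muscle did not differ from that mean for Ephb2 by more than the error (log2 0.01 ± 0.14, adjusted p = 0.942), the single lineage comparison that was not called. Ephb3, which acts together with Ephb2 in many tissues, averaged 24.3 CPM in Wt ectoderm, 19.3 in mesenchyme, 12.7 in muscle and 2.08 in endothelium, with ectoderm 1.45 ± 0.14 above the mean of the others on the log2 scale (adjusted p = 1.41e-10).

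The ligands of the B class again separated. Efnb1, an X-linked gene known for its part in craniofacial and digit patterning, averaged 60.6 CPM in Wt mesenchyme, 33.1 in ectoderm, 22.6 in muscle and 2.34 in endothelium, and mesenchyme was 4.42-fold above the mean of the others (log2 2.15 ± 0.08, adjusted p = 8.33e-21). Efnb2, the ligand of arterial endothelium, stood at 236 and 141 CPM in Wt endothelium, at 157 and 124 in E1C8Δ/Δ and at 138, 141 and 191 in E1C5Δ/Δ. These values overlapped between the genotypes, and all lay above the Wt mesenchymal range of 59.3 to 68.6. Endothelium was 3.35-fold above the mean of the other lineages for Efnb2 (log2 1.74 ± 0.06, adjusted p = 1.82e-21), and the Wt ranges of mesenchyme, ectoderm and muscle overlapped in the order 62.5, 59.3 and 39.4 CPM. In endothelium Efna1 and Efnb2, both ligands, were the members above the mean of the other lineages, and the remaining 7 were below it.

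The same ligands differed within the endothelium. Cells with a UMI of an arterial gene (Gja4, Dll4 or Sox17) were compared with the other endothelial cells, which 1 Wt and 1 E1C8Δ/Δ library held in sufficient number, so these values carry no test. Efnb2 stood at 159 CPM in arterial-marker cells against 86.5 in the others in the Wt library, and at 187 against 63.4 in the E1C8Δ/Δ library. Efna1 followed with 127 against 88.9 and 169 against 62.0. Ephb4, the receptor of venous endothelium, stood at 43.3 against 45.7 and 51.1 against 48.2. Summed over 399 arterial-marker and 126 other cells of all libraries, Efnb2 reached 185 CPM (95% exact Poisson interval 179 to 191, counting error only) against 88.2 (80.4 to 96.5), and Efna1 143 (138 to 148) against 72.2 (65.2 to 79.8).

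Within the ectoderm the apical ridge, whose cells secrete the FGFs that keep the limb bud growing, had higher values of Epha4 and Epha3 in sums over libraries. The 70 cells with an Fgf8 UMI were too few per library for a test. Summed over all libraries they held 86.7 CPM of Epha4 (73.8 to 101) against 26.2 (23.4 to 29.3) in the 427 other ectodermal cells, and 8.18 CPM of Epha3 (4.58 to 13.5, from 15 UMIs) against 1.08 (0.573 to 1.84, from 13 UMIs). Ephb2 went the other way, with 14.7 CPM (9.70 to 21.4) against 38.2 (34.8 to 41.9), and Efna5 stood at 47.4 (38.0 to 58.5) against 64.2 (59.7 to 68.8). These intervals cover counting error only and not the spread between embryos.

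Position within the mesenchyme moved most members. Each position was tested against the mean of the other 7 over all libraries, with the library as a block. Of 72 tests 44 were called: 5 of 9 members in polarizing cells (19.6% of all genes tested), 7 in distal (33.6%), 5 in peripheral (30.8%), 5 in anterior-proximal (18.0%), 6 in proximal (38.1%), 6 in core (61.0%), 5 in posterior (27.4%) and 5 in zeugopod-level cells (43.9%). In core and zeugopod-level cells the share of members called was thus near the share of all genes. Positions held 20 to 41 polarizing cells a library (5 libraries), 26 to 78 distal (5), 25 to 91 anterior-proximal (5) and 40 to 92 proximal cells (6), and the other positions were measured in all 9 libraries.

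**Figure D2:**
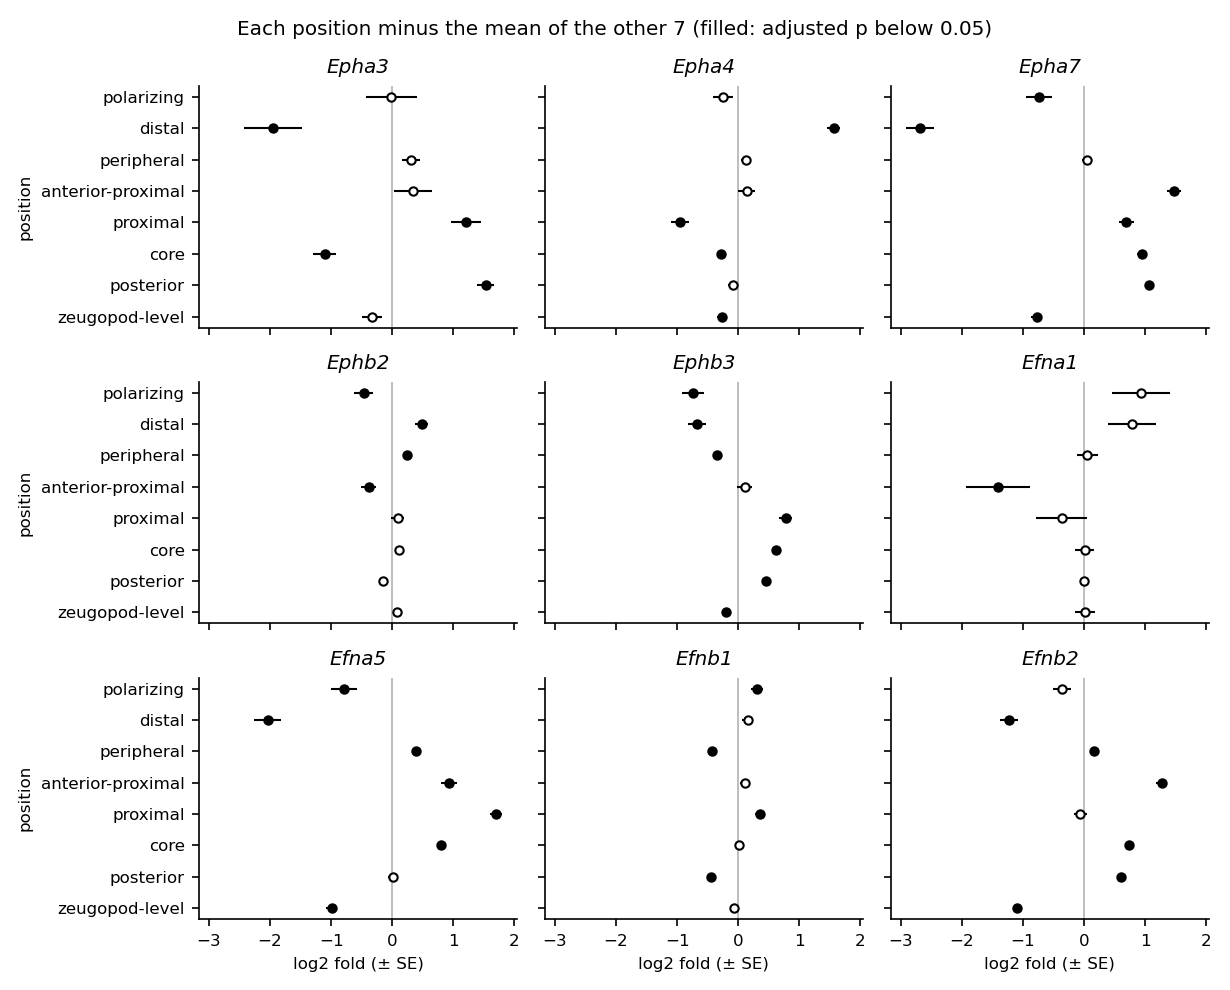
Difference of each of 8 mesenchymal positions from the mean of the other 7 in 9 panels, 1 per gene, as log2 fold change ± SE on the horizontal axis, with filled points where the adjusted p was below 0.05. Epha4 stands to the right in distal cells (1.56), where Epha7 (-2.68), Efna5 (-2.04) and Efnb2 (-1.23) stand to the left.

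Epha4 was highest in distal cells. It stood at 357 and 301 CPM in the distal cells of Wt, 270.3 and 266 in E1C8Δ/Δ and 198 in E1C5Δ/Δ. Both Wt values lay above those of every other Wt position, the next being peripheral cells with a mean of 128. Distal cells were 2.95-fold above the mean of the other positions (log2 1.56 ± 0.11, adjusted p = 3.62e-18), and 79.2% of them carried an Epha4 UMI at 10000 UMIs in Wt. From the peripheral cells down, the Wt means of Epha4 were 122 CPM in anterior-proximal, 113 in zeugopod-level, 110 in polarizing, 104 in posterior and 95.7 in core cells, with ranges that overlapped from each to the next. Proximal cells were lowest at 75.0 and 64.8 CPM in Wt, below the core range, and 1.93-fold below the mean of the other positions (log2 -0.95 ± 0.14, adjusted p = 1.78e-07).

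Epha7 ran the opposite way. It stood at 113 and 62.6 CPM in Wt anterior-proximal cells, 60.1 and 90.5 in E1C8Δ/Δ and 114 in E1C5Δ/Δ, and at 7.18 and 6.25 in Wt distal cells, 8.15 and 4.60 in E1C8Δ/Δ and 8.34 in E1C5Δ/Δ. In these libraries the 2 positions did not overlap. Anterior-proximal cells were 2.77-fold above the mean of the other positions for Epha7 (log2 1.47 ± 0.12, adjusted p = 1.13e-15) and distal cells 6.43-fold below it (log2 -2.68 ± 0.23, adjusted p = 1.56e-14). Between them the Wt means were 70.4 CPM in posterior, 64.2 in core, 44.6 in proximal, 38.1 in peripheral, 20.6 in zeugopod-level and 16.0 in polarizing cells. Posterior (log2 1.07 ± 0.07) and core cells (0.94 ± 0.07) lay above the mean, zeugopod-level (-0.78 ± 0.09) and polarizing cells (-0.74 ± 0.21) below it.

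The Wt level of Epha3 was highest in proximal and posterior mesenchyme. In Wt Epha3 stood at 24.6 and 29.0 CPM in proximal and at 24.6, 27.1 and 14.4 in posterior cells, and these 2 ranges overlapped. Posterior cells of E1C8Δ/Δ held 33.9, 32.2 and 25.8 CPM and those of E1C5Δ/Δ 21.1, 39.3 and 45.6. Posterior cells were 2.89-fold above the mean of the other positions (log2 1.53 ± 0.14, adjusted p = 5.55e-14) and proximal cells 2.31-fold (log2 1.21 ± 0.24, adjusted p = 4.24e-05). Wt means of Epha3 were 10.9 CPM in anterior-proximal and 10.5 in peripheral cells, and 5.28 or less in zeugopod-level, polarizing, core and distal cells. After thinning, an Epha3 UMI was seen in 12.2% of posterior, 9.59% of peripheral, 9.53% of proximal and 6.80% of anterior-proximal Wt cells. Unthinned shares were 29.1%, 29.9%, 25.2% and 27.8% in that order. Thinned shares were 5.42% or less in the other positions. The higher level in proximal than in peripheral cells was thus not matched by a larger share of cells with a UMI. Core cells lay below the mean by log2 -1.10 ± 0.19 (adjusted p = 8.26e-07), and distal cells, with 3 to 10 Epha3 UMIs in each Wt library, by log2 -1.95 ± 0.47 (adjusted p = 0.000728).

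Efna5, a ligand of these EphA receptors, was proximal. It stood at 87.0 and 55.3 CPM in Wt proximal cells, 62.5 and 51.5 in E1C8Δ/Δ and 58.8 and 96.8 in E1C5Δ/Δ, and at 6.85 and 6.90 in Wt distal cells, 5.43 and 3.68 in E1C8Δ/Δ and 12.5 in E1C5Δ/Δ. Every proximal sum lay above every distal one. Proximal cells were 3.24-fold above the mean of the other positions for Efna5 (log2 1.70 ± 0.10, adjusted p = 5.58e-21), anterior-proximal (0.93 ± 0.13), core (0.79 ± 0.07) and peripheral cells (0.39 ± 0.07) were above it too, and distal cells were 4.11-fold below it (log2 -2.04 ± 0.21, adjusted p = 8.21e-12). Zeugopod-level and polarizing cells lay below the mean by log2 -0.99 ± 0.09 and -0.79 ± 0.21. Efna1 stayed between 0.229 and 2.30 CPM in the Wt mean of every position. Its call in anterior-proximal cells (log2 -1.42 ± 0.52), at the edge of the threshold, rested on 0 to 4 UMIs in each of 5 libraries.

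The EphB receptors had different orders of positions. Ephb2 had Wt means from 34.4 CPM in distal to 16.6 in anterior-proximal cells, with peripheral cells at 30.5, core at 26.8, proximal at 23.8, zeugopod-level at 23.6, posterior at 21.6 and polarizing at 20.1. Its largest called difference was that of distal cells, 1.39-fold above the mean of the others (log2 0.48 ± 0.11, adjusted p = 0.000406). Ephb3 ran from 31.0 CPM in proximal, 25.6 in core and 21.9 in posterior cells to 11.6 in distal and 6.69 in polarizing cells. In polarizing cells it stood at 6.10 and 7.27 CPM in Wt, 13.1 and 11.9 in E1C8Δ/Δ and 18.1 in E1C5Δ/Δ, and the 3 mutant values lay above both Wt values. Proximal cells were 1.72-fold above the mean of the other positions for Ephb3 (log2 0.78 ± 0.10, adjusted p = 7.99e-09) and polarizing cells 1.67-fold below it (log2 -0.74 ± 0.18, adjusted p = 0.00178).

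Of the ligands of the B class, Efnb1 was the flattest member and Efnb2 was highest in anterior-proximal cells. Wt means of Efnb1 lay between 82.1 CPM in polarizing and 49.1 in posterior cells, with ranges that overlapped from each position to the next, and its largest called difference was that of posterior cells, 1.36-fold below the mean of the others (log2 -0.45 ± 0.05, adjusted p = 1.10e-10). Efnb2 stood at 137 and 109 CPM in Wt anterior-proximal cells, 132 and 143 in E1C8Δ/Δ and 136 in E1C5Δ/Δ. In zeugopod-level cells it stood at 27.6, 25.3 and 26.4 CPM in Wt, 29.1, 31.7 and 24.0 in E1C8Δ/Δ and 27.9, 25.7 and 45.5 in E1C5Δ/Δ. The 2 positions did not overlap in any genotype. Anterior-proximal cells were 2.41-fold above the mean of the other positions for Efnb2 (log2 1.27 ± 0.10, adjusted p = 8.83e-17), core (0.73 ± 0.06) and posterior cells (0.61 ± 0.06) were above it, and zeugopod-level cells were 2.15-fold (log2 -1.10 ± 0.07, adjusted p = 1.19e-20) and distal cells 2.34-fold below it (log2 -1.23 ± 0.15, adjusted p = 4.88e-10). The small excess of Efnb2 in peripheral cells (log2 0.15 ± 0.06, adjusted p = 0.0419) turned to -0.16 when positions were read at 5000 UMIs or when cells of several positions were kept. The deficit of Epha4 in zeugopod-level cells (log2 -0.26 ± 0.08, adjusted p = 0.00364) turned to 0.16 and 0.13 under the same settings.

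Some members followed each other over the 8 positions. Among the 36 pairs, Pearson's r of the Wt means was highest for the receptor Epha7 with the ligand Efnb2 (0.87), for Ephb2 with Efna1 (0.84) and for Epha7 with Efna5 (0.79). It was lowest for the receptor Epha4 with the ligand Efna5 (-0.78), followed by Epha4 with Epha7 (-0.69) and Epha3 with Epha4 (-0.63). These are descriptions over 8 points that share libraries, and Efna1 was low throughout.

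The dorsoventral axis was read through Lmx1b, the selector gene of dorsal limb mesenchyme. Mesenchymal cells with an Lmx1b UMI after thinning (11109) were compared with those without (22992) within each of the 9 libraries. Of the 9 members 7 were called, 4 higher and 3 lower with Lmx1b (30.2% of all genes tested). An Lmx1b UMI is missed in many cells that express the gene, so cells without one still hold dorsal cells.

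Efnb2 differed most. With and without an Lmx1b UMI its level was 99.7 and 53.0, 83.5 and 46.8, and 87.9 and 46.6 CPM in the 3 Wt libraries, 109 and 50.8, 97.9 and 59.9, and 80.9 and 45.6 in E1C8Δ/Δ, and 82.8 and 44.2, 64.4 and 39.6, and 109 and 58.4 in E1C5Δ/Δ. It was higher with Lmx1b in 9 of 9 libraries, and the 2 sets of values did not overlap. The difference was 1.77-fold (log2 0.82 ± 0.02, adjusted p = 1.00e-19). Epha7 was 1.43-fold higher (log2 0.51 ± 0.03, adjusted p = 4.85e-14), with 59.0 and 38.5, 45.4 and 30.6, and 57.4 and 46.9 CPM in Wt. Epha4 was 1.22-fold higher (log2 0.29 ± 0.02, adjusted p = 6.83e-12), with 149 and 119, 116 and 91.2, and 131 and 114 CPM in Wt. Both were higher with Lmx1b in 9 of 9 libraries. Epha3 went the other way, with 7.76 and 11.5, 7.01 and 9.61, and 6.02 and 7.73 CPM in Wt, and was 1.27-fold lower with Lmx1b (log2 -0.35 ± 0.04, adjusted p = 9.99e-07), lower in 9 of 9 libraries. Efnb1 (log2 -0.24 ± 0.02, adjusted p = 5.75e-11) and Efna1 (-0.28 ± 0.08, adjusted p = 0.00936) were lower with Lmx1b and Efna5 slightly higher (0.09 ± 0.02, adjusted p = 0.00360). Ephb2 (0.06, adjusted p = 0.0538) and Ephb3 (-0.04, adjusted p = 0.213) did not pass the test. Ephb2 passed in 5 of 17 alternatives (adjusted p down to 0.0112), among them those without E1C5Δ/Δ replicate 1 or E1C8Δ/Δ replicate 2, and the call of Efna1 was lost in 3 of 17 (adjusted p up to 0.368).

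**Figure D3:**
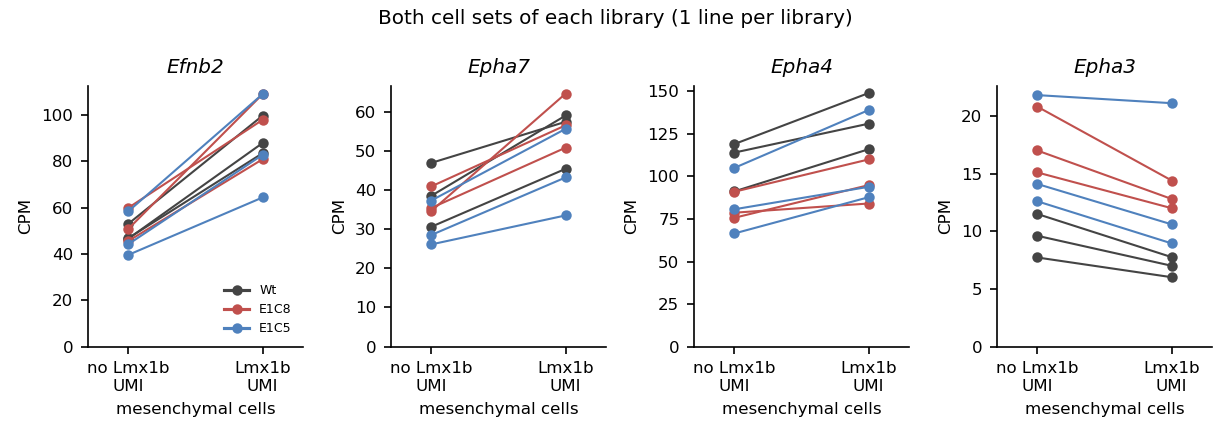
Level (CPM) of Efnb2, Epha7, Epha4 and Epha3 in mesenchymal cells without and with an Lmx1b UMI, with 1 line for each of the 9 libraries, coloured by genotype. Lines rise in 9 of 9 libraries for Efnb2, Epha7 and Epha4 and fall in 9 of 9 for Epha3.

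The genotypes were then compared, to see which of these levels change when Grem1 expression is lowered by loss of enhancers. Grem1 was lower in the mutants as labelled, with 34.8 ± 7.86 CPM (SD, n = 3) in the mesenchyme of Wt, 12.5 ± 1.66 in E1C8Δ/Δ and 19.3 ± 4.16 in E1C5Δ/Δ (log2 -1.14 ± 0.14 for the mean of both mutants, adjusted p = 0.00511). All comparisons with Wt use the same 3 Wt libraries, and Wt held no female library, so genotype was compared across sexes except where stated.

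Epha3 was the member that passed in whole mesenchyme. It stood at 10.3, 8.71 and 7.16 CPM in Wt, 18.6, 15.6 and 14.2 in E1C8Δ/Δ and 12.8, 11.2 and 21.5 in E1C5Δ/Δ. All 6 mutant libraries lay above all 3 Wt libraries. The mean of both mutants was 1.78-fold above Wt (log2 0.84 ± 0.17, adjusted p = 0.0366), making 1 of 9 members called against 2.14% of all genes tested. Against Wt alone E1C8Δ/Δ gave log2 0.84 ± 0.20 (adjusted p = 0.0271) and E1C5Δ/Δ 0.83 ± 0.20 (adjusted p = 0.0677). The call was lost in 10 of 17 alternatives, among them 7 of the 9 fits without 1 library (all but those without E1C5Δ/Δ replicate 2 or 3, adjusted p 0.0547 to 0.106), a term for sex (log2 0.60, adjusted p = 0.321), the replicate number as a block (0.83, adjusted p = 0.0875) and the fit without Wt replicate 3 and E1C8Δ/Δ replicate 1 (0.67, adjusted p = 0.178). Among male libraries Epha3 ran from 7.16 to 10.3 CPM in the 3 of Wt and from 11.2 to 14.2 in the 2 mutant ones.

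The marker sums of muscle, the lineage with most Epha3, were 9.88 to 20.7 CPM in E1C8Δ/Δ mesenchyme against 7.60 to 9.42 in Wt. Those of E1C5Δ/Δ mesenchyme were 6.30 to 7.14 CPM. The part of muscle transcripts in the Epha3 values was not tested. Each of the 9 muscle markers was detected in the mesenchyme of every genotype.

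The other receptors of the mesenchyme had lower values in mutants that did not pass in the main edgeR comparison of both mutants with Wt. Among 17 alternatives Ephb2 passed in 2 (adjusted p down to 0.0239) and Epha4 in 1 (0.0333). Epha4 stood at 129, 99.5 and 119 CPM in Wt, 80.1, 96.7 and 80.6 in E1C8Δ/Δ and 74.1, 85.6 and 118 in E1C5Δ/Δ. Of the 6 mutant libraries 5 lay below all Wt libraries, and the difference was log2 -0.37 ± 0.12 (adjusted p = 0.128). Ephb2 stood at 28.1, 22.3 and 28.2 CPM in Wt, 18.9, 20.3 and 19.6 in E1C8Δ/Δ and 16.6, 19.5 and 24.8 in E1C5Δ/Δ. The E1C8Δ/Δ libraries lay below all Wt libraries, as did all but 1 of E1C5Δ/Δ. The difference of both mutants was log2 -0.38 ± 0.10 (adjusted p = 0.0834), and E1C8Δ/Δ alone passed with -0.44 ± 0.12 (adjusted p = 0.0459), which with Epha3 made 2 of 9 members against 9.30% of all genes. E1C5Δ/Δ against Wt gave 0 of 9 with edgeR (1.38% of all genes called). At an unadjusted p under 0.05 were 4 of 9 members, beside 2300 of all 16711 genes.

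The remaining members did not pass in mesenchyme. The log2 differences of both mutants from Wt were -0.14 for Epha7 (adjusted p = 0.561), 0.04 for Efna5 (0.915), -0.06 for Efna1 (0.924), -0.14 for Ephb3 (0.449), -0.17 for Efnb1 (0.375) and 0.04 for Efnb2 (0.908). The median over the 9 members was -0.14, beside -0.01 over all genes tested.

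**Figure D4:**
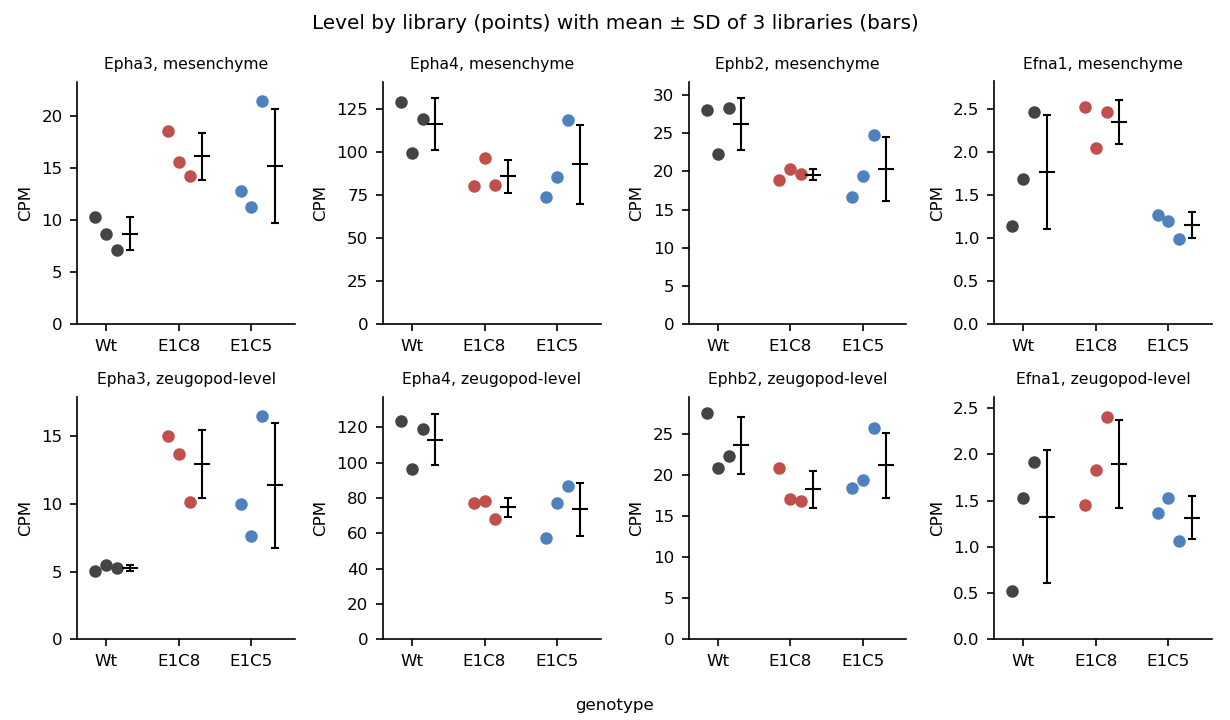
Level (CPM) of Epha3, Epha4, Ephb2 and Efna1 in each library (points) by genotype, in whole mesenchyme (top) and in zeugopod-level cells (bottom), with bars at the mean ± SD. For Epha3 every mutant library lies above every Wt library in both sets of cells, and for Epha4 every mutant library lies below every Wt library in zeugopod-level cells.

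By position, Epha3 and Epha4 differed in zeugopod-level cells, named for Hoxa11 and Hoxd11 without Hoxa13. Cells that also met the peripheral (2851) or core definition (1027) were left out of them. In the zeugopod-level cells kept, Grem1 itself stood at 92.7 ± 12.4 CPM in Wt against 29.2 ± 3.29 in E1C8Δ/Δ and 32.4 ± 3.44 in E1C5Δ/Δ. Over the 8 positions 67 member tests could be made for both mutants against Wt, and 2 were called, both in these cells (2 of 9 members, 1.50% of all genes tested). Epha3 stood at 5.07, 5.49 and 5.28 CPM in Wt (125, 169 and 22 UMIs), 15.0, 13.7 and 10.1 in E1C8Δ/Δ and 9.97, 7.63 and 16.5 in E1C5Δ/Δ. All mutant values lay above the Wt range. The difference was 2.27-fold (log2 1.18 ± 0.20, adjusted p = 0.0122), and each mutant passed on its own, E1C8Δ/Δ with log2 1.23 ± 0.24 (adjusted p = 0.00991; 2 of 9 members called, 7.72% of all genes) and E1C5Δ/Δ with 1.14 ± 0.22 (adjusted p = 0.0273; 2 of 9, 0.728% of all genes).

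Epha4 was the other one. In zeugopod-level cells it stood at 123, 96.5 and 119 CPM in Wt, 77.2, 78.4 and 68.3 in E1C8Δ/Δ and 57.1, 77.1 and 86.7 in E1C5Δ/Δ. All 6 mutant values lay below the 3 Wt values. The level was 1.51-fold lower in the mutants (log2 -0.60 ± 0.11, adjusted p = 0.0161; E1C8Δ/Δ alone -0.60, adjusted p = 0.0170; E1C5Δ/Δ alone -0.60, adjusted p = 0.0485). Among male libraries the Epha3 ranges were 5.07 to 5.49 CPM in Wt and 7.63 to 10.1 in mutants, and those of Epha4 96.5 to 123 and 68.3 to 77.1. Both calls were lost in 5 of 20 alternatives each, including the fits with a term for sex (adjusted p = 0.204 for each gene) and without Wt replicate 1 (0.0548 for each). Leaving out Wt replicate 3 and E1C8Δ/Δ replicate 1 gave an adjusted p of 0.0837 for Epha3 and 0.0993 for Epha4. The sums of muscle markers in zeugopod-level cells were 6.45 to 8.54 CPM in Wt, 8.25 to 16.5 in E1C8Δ/Δ and 4.29 to 4.69 in E1C5Δ/Δ. Their part in the Epha3 values was not tested.

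In the other positions no member passed for both mutants. This was 0 of 9 in peripheral (0.160% of all genes called), core (1.82%) and posterior cells (0.530%), 0 of 8 in polarizing (0.973%), anterior-proximal (0.566%) and proximal cells (0.111%) and 0 of 7 in distal cells (0.476%). With edgeR the counts at an unadjusted p under 0.05 were 3, 2, 1, 4, 0, 1 and 2 in that order. Over all genes they were 1747 of 13095, 2260 of 13220, 1384 of 12271, 811 of 9351, 790 of 9892, 790 of 9879 and 868 of 9040. DESeq2 called 2 members over all 8 positions. Epha3 in core cells stood at 3.85, 3.28 and 2.93 CPM in Wt, 26.01, 8.54 and 5.48 in E1C8Δ/Δ and 6.37, 4.92 and 10.749 in E1C5Δ/Δ. The groups did not overlap, but the highest value was that of E1C8Δ/Δ replicate 1, 1 of the 2 small libraries, and the difference of log2 1.38 ± 0.36 did not pass (adjusted p = 0.0791). In polarizing cells the 1 E1C5Δ/Δ library with sufficient cells (38) held 32.1 CPM of Epha3 from 55 UMIs, against 3.49 and 4.36 in Wt (log2 2.94 ± 0.46, adjusted p = 6.07e-05; 1 of 8 members called, 0.738% of all genes). This genotype has no replicate there, and the p assumes that its lone library varies like the other groups. Epha4 in distal cells differed by log2 -0.53 ± 0.13 (adjusted p = 0.116).

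Whether genotype differences varied between positions was tested in 1 joint test, and no separate test of zeugopod-level against other cells was run. Over all position by genotype terms together 5 of 9 members had an unadjusted p under 0.05 (edgeR, beside 1240 of all 12578 genes). After adjustment 0 of 9 passed (1.08% of all genes called), with Epha3 at an adjusted p of 0.106 and Efnb1 at 0.129. DESeq2 gave 0 as well, so the changes of Epha3 and Epha4 were not shown to be particular to the zeugopod level. Of the genes that set the positions, Hoxd13 (log2 -0.81, adjusted p = 0.0112) and Col2a1 (-0.75, 0.0442) passed between both mutants and Wt over whole mesenchyme, and the part of these differences in which cells were taken for each position was not tested. The other position genes did not pass, among them Hoxa13 (-1.06, 0.0580) and the zeugopod-level genes Hoxa11 (0.26, 0.174) and Hoxd11 (-0.17, 0.333). Lmx1b did not differ measurably (-0.01, adjusted p = 0.973).

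Outside the mesenchyme no member passed between genotypes. Of 23 member tests with edgeR 0 were called: 0 of 8 in ectoderm (0% of all genes called), 0 of 6 in endothelium (0.00936%) and 0 of 9 in muscle (0.418%). DESeq2 called 0 as well. At an unadjusted p under 0.05 with edgeR were 1, 0 and 1 members, beside 463 of 10777, 573 of 10688 and 1214 of 11711 genes. Ephb2 in ectoderm differed by log2 -0.60 ± 0.27 (adjusted p = 0.984) and Epha4 in muscle by -0.48 (0.353). These lineages held 53 to 150, 36 to 137 and 28 to 232 cells in each library used, and the size of difference that could be found in them was not tested.

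The mutants were also compared with each other. E1C8Δ/Δ minus E1C5Δ/Δ gave 1 of 9 members in mesenchyme (9.60% of all genes), 1 of 8 in anterior-proximal cells (0.738%; a single E1C5Δ/Δ library of 25 cells, assumed to vary like the other groups), 1 of 9 in posterior cells (5.05%) and 1 of 9 in zeugopod-level cells (7.35%). The genes were Efna1, Epha4, Efna1 and Epha7. For Epha7, measured in 3 libraries of each mutant, zeugopod-level cells held 31.6, 27.7 and 23.0 CPM in E1C8Δ/Δ and 16.5, 15.0 and 21.3 in E1C5Δ/Δ. The groups did not overlap, and the difference was log2 0.57 ± 0.15 (adjusted p = 0.0335).

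The rest of the family was tested in the same fits. Of the 13 other Eph and ephrin genes 10 could be tested between lineages, and 8 passed in mesenchyme (69.0% of all genes), 9 in ectoderm (61.5%), 10 in endothelium (77.8%) and 8 in muscle (64.5%). Epha5, a receptor known from axon targeting, averaged 94.9 ± 18.8 CPM (SD, n = 3) in Wt muscle, beside the muscle level of Epha3. Epha1 stood at 33.9 ± 6.37 (n = 2) in ectoderm, Epha2 at 22.5 in endothelium and the ligand Efna2 at 108 in mesenchyme. In distal cells Epha2 (log2 3.23 ± 0.29) and Epha1 (1.94 ± 0.27) lay above the mean of the other positions, as Epha4 did, and Efnb3 below it (-0.90 ± 0.11), as Efnb2 did. Ephb1 lay above it in proximal (2.96 ± 0.35), posterior (2.16 ± 0.24) and core cells (1.87 ± 0.23). Between both mutants and Wt 0 of 11 passed in mesenchyme (edgeR, 2.14% of all genes called). At an unadjusted p under 0.05 were 3 of them, beside 3241 of all 16711 genes. Epha5 passed in posterior and in anterior-proximal cells. In posterior cells Epha5 stood at 21.7, 16.3 and 15.1 CPM in Wt, 34.7, 31.7 and 33.9 in E1C8Δ/Δ and 24.0, 25.7 and 26.7 in E1C5Δ/Δ, without overlap (log2 0.68 ± 0.12, adjusted p = 0.0227), and E1C8Δ/Δ passed on its own (0.87 ± 0.14, adjusted p = 0.00530) while E1C5Δ/Δ did not. In anterior-proximal cells Epha5 stood at 19.6 and 18.6 CPM in Wt, 28.0 and 31.8 in E1C8Δ/Δ and 50.4 in the 1 E1C5Δ/Δ library of 25 cells. The difference of both mutants was 0.99 ± 0.22 (adjusted p = 0.0250). That of E1C5Δ/Δ alone was 1.34 ± 0.28 (adjusted p = 0.0231), where the lone library is assumed to vary like the other groups, and E1C8Δ/Δ alone did not pass. The other call of this list in a single mutant was Ephb1 in muscle of E1C5Δ/Δ (2.21 ± 0.48, adjusted p = 0.0409), with 4.796, 1.93 and 6.62 CPM against 0.996, 1.08 and 1.21 in Wt, from 2 to 8 UMIs in each Wt library.

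Intracellular partners of the receptors and ligands were listed too. Of 23 effectors 22 were tested in mesenchyme and 0 passed between both mutants and Wt with edgeR (2.14% of all genes called). At an unadjusted p under 0.05 were 8 of them, beside 3241 of all 16711 genes. E1C8Δ/Δ alone gave 6 of 22 (9.30% of all genes), with the adaptor Nck2 higher (log2 0.76, adjusted p = 0.00598) and Ptpn11, Anks1, Tiam1 and Inppl1 among the 5 lower ones, by log2 -0.42, -0.42, -0.40 and -0.32. E1C5Δ/Δ alone gave 0 of 22 (1.38% of all genes). E1C8Δ/Δ minus E1C5Δ/Δ gave 6 of 22 (9.60% of all genes), among them Nck2 (log2 0.97) and Ptpn11 (-0.43). Between lineages 17 of 22 passed in endothelium, 11 higher and 6 lower, a share of 77.3% beside 77.8% of all genes. The largest differences were those of the guanine exchange factor Arhgef15 (log2 6.76), Vav3 (3.43) and Rgs3 (3.23), which binds B-class ephrins. Along positions Rgs3 was higher in proximal (0.78 ± 0.11) and core cells (0.55 ± 0.06) and lower in peripheral (-0.50 ± 0.06), distal (-0.47 ± 0.15) and zeugopod-level cells (-0.19 ± 0.06), and 9 of 22 effectors (40.9%, beside 30.2% of all genes) passed between cells with and without Lmx1b.

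Genes with the pattern most like each member were found by Pearson's r of log2(mean Wt CPM + 1) over 11 groups, the 8 positions, ectoderm, endothelium and muscle, among 7909 genes. For Epha3 these were Eef1g (0.89), Bdnf (0.87) and Rptor (0.87), for Epha4 Hjurp (0.98), Atf2 (0.97) and Srsf4 (0.96), and for Epha7 Col1a1 (0.97), Zfhx4 (0.97) and Spin2c (0.96). For the ligands Efna1 and Efna5 they were Hebp1, Trim16 and Gimap9 (each 0.98) and Lpgat1 (0.93), Spg21 (0.93) and Meis1 (0.92). Among those closest to Ephb2 were B230354K17Rik and Zbtb37 (each 0.97), and Ephb3 was closest to Tdrd3 (0.98), Tcp11l1 (0.98) and Flywch2 (0.96). Efnb1 was closest to Strbp (0.99), Rbm15b (0.98) and Vegfa (0.98), and Efnb2 to Hoxb7 (0.95), Hoxb8 (0.91) and Bad (0.90). The groups come from the same 3 libraries, and r is given as a description with no test.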

How the data were processed

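Forelimb buds were dissociated and each pair was made into a droplet-based 3′ library. The authors deposited raw UMI counts per gene and barcode, made with Cell Ranger 6.0.1 on mm10; Seurat 4.3.0.1 is also in the submitters' processing notes. Cells with over 2500 genes, under 200000 UMIs and under 10% mitochondrial UMIs were kept. Artificial-doublet scores removed an assumed 0.8% of cells per 1000 barcodes. A lineage needed at least 3 of its markers at 2 or more UMIs each and no other list at that level, a rule set after the marker distributions were seen. Counts were summed per library and group (at least 20 cells) and tested with edgeR 4.0.16 (R 4.3.3), without Xist and Y-linked genes. DESeq2 1.42.0, other filters, gates, covariates and left-out libraries were alternatives; at least 10 cells, and leaving out both small libraries, were added after the data were seen. Simulated 2-fold changes in 200 genes were recovered for 75.0% of them between genotypes in mesenchyme (16711 genes) and 96.0% for core cells (11895 genes). The 9 genes and all lists were chosen with earlier results of these data known. Of other family genes and effectors at most 5 called with the largest differences per comparison were eligible to be named, and 3 similar genes per member, of which 1 is not reported here. Shares at 0 and intervals cover counting error only. Reads of genes sharing sequence were not separated further.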

Additional observations from a re-analysis of the deposited data

Results flagged for a closer look

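Between the mutants, 4 differences had an adjusted p under 0.05 in the test of E1C8Δ/Δ minus E1C5Δ/Δ itself. In the same tests 9.60% of all genes were called in mesenchyme, 5.05% in posterior, 7.35% in zeugopod-level and 0.738% in anterior-proximal cells, beside 1 member in each, so in mesenchyme and zeugopod-level cells, where 1 of 9 is 11.1%, the share of members was near that of all genes. Efna1 in mesenchyme differed by log2 0.94 ± 0.26 (adjusted p = 0.0470), with 2.53, 2.05 and 2.46 CPM in E1C8Δ/Δ and 1.28, 1.20 and 0.987 in E1C5Δ/Δ, and the Wt values of 1.14, 1.69 and 2.47 overlapped both. Efna1 in posterior cells differed by 1.90 ± 0.46 (adjusted p = 0.0292), with 3.39, 2.17 and 3.23 CPM in E1C8Δ/Δ against 0.755, 1.45 and 0.478 from 8, 5 and 6 UMIs in E1C5Δ/Δ. Erythroid cells, taken as background, held 0.601 CPM in Wt, below every E1C8Δ/Δ value. The ectodermal and endothelial marker sums were higher in E1C8Δ/Δ than in E1C5Δ/Δ mesenchyme, whose part in the result was not tested. Epha4 in anterior-proximal cells differed by -1.10 ± 0.27 (adjusted p = 0.0452), with 105 and 80.5 CPM in E1C8Δ/Δ against 209.7 in a single E1C5Δ/Δ library of 25 cells. That genotype has no replicate there, and the p assumes that its lone library varies like the other groups. Epha7 in zeugopod-level cells differed by 0.57 ± 0.15 (adjusted p = 0.0335), the 3 libraries of each mutant not overlapping.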

How the results depend on the processing

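A tally covered all members between genotypes in mesenchyme and by Lmx1b, and Epha3 and Epha4 in zeugopod-level cells. It also took each member's largest lineage and largest position difference, picked from these data. There 610 alternatives kept the direction and the side of the threshold, 38 lost a call, 8 gained one and 14 turned in direction. All 14 were among differences that had not passed. Over all member tests more values moved. With cells of several positions kept, 64 uncalled and 2 called differences turned in direction. With a term for sex 12 calls were lost and 2 kept. Calls by lineage (35, range 30 to 35), by position (44, range 34 to 52, and 43 in Wt libraries alone) and by Lmx1b (7) stayed within 1.5 times of their number, and the 0 calls in ectoderm, endothelium and muscle stayed at 0. Calls between genotypes did not. In mesenchyme the count of 1 became 2 with DESeq2, 0 with the replicate number as a block, 0 with a term for sex, 0 without the 2 small libraries, and 0 to 3 with 1 library left out. Calls over all genes moved too, from 357 to 997, 94, 2 and 40 in the same order. With 1 library left out they were 117 to 764. Over positions the count of 2 became 7 without a filter on low counts, 0 with a term for sex, 1 with positions read on all UMIs, 1 at 5000 UMIs, 0 without the small libraries, and 0 to 3 with 1 library left out. In zeugopod-level cells alone, calls over all genes went from 191 to 707, 23, 101, 153 and 78 in that order. With 1 library left out they were 88 to 423. The count of 0 for differences that vary with position became 6 without the filter, 1 with doublets kept, 1 on all UMIs, and 0 to 1 with 1 library left out. The cause was not tested.

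Efna1 in mesenchyme (log2 -0.06) turned to 0.057 with a term for sex, 0.19 without the small libraries and up to 0.20 with 1 library left out (-0.31 to 0.20, positive without Wt replicate 3 or E1C5Δ/Δ replicate 3). Efnb2 (0.04) turned to -0.20, -0.017 and down to -0.041 in the same order (-0.041 to 0.098, negative without the same 2 libraries). Efna5 (0.04) turned to -0.15 with a term for sex and ran from -0.065 to 0.13 with 1 library left out, negative without Wt replicate 2, E1C5Δ/Δ replicate 3 or E1C8Δ/Δ replicate 2. Ephb3 with Lmx1b (-0.04) turned to 0.015 on all UMIs and 0.0094 at 5000 UMIs. In zeugopod-level cells Epha3 ranged from 0.80 to 1.27 and also lost its call on all UMIs (adjusted p = 0.0617) and at 5000 UMIs (0.114), and Epha4 lost it at 5000 UMIs (0.0915) and with cells of several positions kept (log2 -0.34, 0.144). Of the called position differences beyond these, Efnb2 in peripheral cells turned to -0.16 at 5000 UMIs and with cells of several positions kept, and Epha4 in zeugopod-level cells to 0.16 and 0.13. The turned Efnb2 difference passed with cells of several positions kept (adjusted p = 0.0116) but not at 5000 UMIs (0.0545). The anterior-proximal call of Efna1 was lost in 14 of 19 alternatives.

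The paper states that the steps from cell isolation to sequencing were done 3 times, with 1 pair of buds per genotype. Which libraries shared a round is not stated. Correlations cannot exclude a pairing, and none by replicate number was seen. Over 9 same-numbered pairs the correlation of deviations from the group means ran from -0.327 to 0.0923 (12968 genes). Over pairs of different number it ran from -0.297 to 0.486. Of these, Wt replicates 1, 2 and 3 stood at 0.486, 0.316 and 0.282 with E1C5Δ/Δ replicates 3, 1 and 2. No fit held such a grouping, and its part in the genotype tests was not tested. With the replicate block Epha3 in mesenchyme had log2 0.83 (adjusted p = 0.0875), and Epha3 and Epha4 in zeugopod-level cells kept an adjusted p of 0.0486. In the main setting too few libraries held 20 ridge cells or 20 endothelial cells without an arterial gene for a test. Arterial-marker cells could be fitted by edgeR with doublets kept (Efnb2 1.00 and Efna1 0.95, both called). Epha4 was not called there (1.60, adjusted p = 0.0534). At 5000 UMIs all of Efnb2 (0.94), Efna1 (0.86) and Epha4 (0.86, adjusted p = 0.0312) were called. With at least 10 cells, a limit chosen after seeing the data, the ridge could be fitted and gave Epha4 1.89 (adjusted p = 3.37e-07) and Ephb2 -1.19 (0.0278), whereas marker genes read on all UMIs gave 1.46 (6.66e-06) and -0.75 (0.145, not called). The other members tested were called in neither ridge fit, among them Efna5 (-0.41, adjusted p = 0.422, and -0.08, 0.919). Epha3 was tested in neither. Arterial-marker cells gave Efnb2 1.06 and Efna1 0.90 with at least 10 cells.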
